A study of Mus musculus with 8 samples.

Results

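The immunity-related GTPases (IRG proteins) were followed in the liver through 9 genes, Irgm1, Irgm2, Igtp, Iigp1, Tgtp1, Tgtp2, Gm4951, F830016B08Rik and BC023105. The 9 members were matched by symbol among the 55487 genes of the count tables. They had been chosen with the difference between the genotypes of these same mice in view, so their differences between genotypes are given as a description and without a test. All 9 were among the 13400 genes kept by the filter on low counts.

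RNA sequencing was done on whole livers of 4 Control mice, known by their numbers 154, 159, 181 and 193, and of 4 mice that lack the melanocortin 1 receptor in hepatocytes (Mc1r LKO), numbered 141, 156, 157 and 182. All were males fed a Western diet from 8 weeks of age for 12 weeks. Control mice carried the floxed receptor gene on both alleles (Mc1r fl/fl), and Mc1r LKO mice carried the same alleles together with a Cre recombinase driven by the albumin promoter (Alb Cre/+), which is active in hepatocytes. Since only Mc1r LKO mice carried Cre, effects of Cre and of the deletion cannot be told apart. The Cre line was of a B6N strain, and the background of the floxed line was not given in the sources used here. Each library was 1 mouse. Livers were measured in bulk, so fewer cells of a type and less RNA per cell cannot be told apart.

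IRG proteins are GTPases that many mouse cells make in response to interferon gamma, and they defend the cell against microbes that live in vacuoles. Interferon gamma acts through its receptor and the kinases JAK1 and JAK2, and promoters of the genes it induces often hold GAS and ISRE motifs. The transcription factor IRF1, itself induced by interferon gamma, binds ISRE motifs. The regulatory members Irgm1, Irgm2 and Igtp (also called Irgm3) sit on the membranes of the cell itself and hold the effector members inactive. Effectors such as Iigp1 (Irga6) and Tgtp1 and Tgtp2 (both Irgb6) load onto the vacuole of the microbe, with help from the autophagy conjugation proteins and beside the guanylate-binding proteins (GBPs), and break its membrane.

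The members lay in 3 groups on the mouse genome (build GRCm38, coordinates from the count tables). Irgm1 (chr11:48861968-48871683, minus strand), Tgtp1 (chr11:48985327-48994172, minus strand) and Tgtp2 (chr11:49057194-49064206, minus strand) spanned 202 kb of chromosome 11. Igtp (chr11:58199556-58207591, plus strand) and Irgm2 (chr11:58199618-58222782, plus strand) spanned 23.2 kb further along the same chromosome and shared 162 exonic bases on the same strand. Gm4951 (chr18:60212080-60247820), F830016B08Rik (chr18:60293380-60303016), Iigp1 (chr18:60376027-60392634) and BC023105 (chr18:60441765-60442980), all on the plus strand, spanned 231 kb of chromosome 18. BC023105 was a single exon of 1216 bases, which the GENCODE annotation of release M21 lists as a processed pseudogene, and the other 8 members were listed as protein coding.

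**Figure D1:**
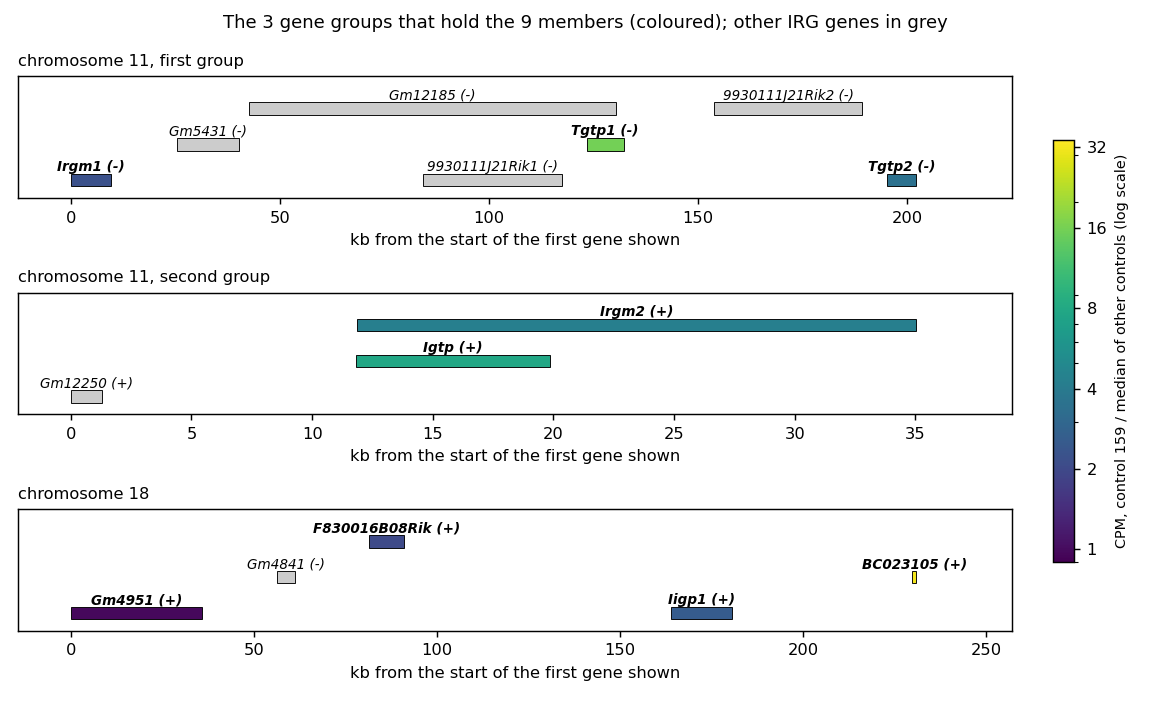
The 3 gene groups drawn to scale, with the horizontal axis in kb from the start of the first gene shown and the strand in brackets. Members are coloured by the ratio of CPM (counts scaled to the same library total) in Control mouse 159 to the median of the other 3 Control mice, from 0.979 for Gm4951 to 32.0 for BC023105, and other IRG genes are grey.

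Promoter sequences are shown because 4 of the members hold both motifs of the interferon gamma pathway named above. RefSeq promoter windows (build GRCm38.p6, 250 bases before to 50 bases after the start) were found for the 5 members on chromosome 11. In the stretches below, written 5′ to 3′ on the strand of the gene, capitals mark matches to the GAS motif TTCNNNGAA and to the ISRE core, which is GAAA repeated after any 2 bases.
Irgm1, chr11:48871428-48871457, minus strand: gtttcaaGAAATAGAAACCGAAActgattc
Irgm2, chr11:58214882-58214941, plus strand: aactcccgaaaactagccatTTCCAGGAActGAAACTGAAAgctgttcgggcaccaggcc
Igtp, chr11:58199491-58199550, plus strand: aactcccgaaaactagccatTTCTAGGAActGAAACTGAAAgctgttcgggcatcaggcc
Tgtp1, chr11:48992295-48992354, minus strand: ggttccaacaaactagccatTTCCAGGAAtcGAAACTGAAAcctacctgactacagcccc
Tgtp2, chr11:49064254-49064313, minus strand: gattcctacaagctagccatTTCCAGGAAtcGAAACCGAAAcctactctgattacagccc

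In Irgm2, Igtp, Tgtp1 and Tgtp2 a GAS match was followed, after a gap of 2 bases, by an ISRE core, starting 75, 45, 88 and 81 bases before the start, respectively. The Irgm2 and Igtp stretches were identical at 58 of 60 bases, and those of Tgtp1 and Tgtp2 at 46 of 60. Irgm1 had 2 overlapping ISRE cores, starting 30 and 24 bases before the start, and no GAS match in its window. On both strands of 32851 windows of mouse genes, the GAS motif was found in 8.30%, the ISRE core in 3.44% and both together in 0.454%. The joined form, a GAS match and an ISRE core on the same strand with any 2 bases between them, was written down after the member sequences had been seen and was found in 5 windows (0.0152%). Besides the 4 members, the fifth window was that of Gm12185, an IRG gene beside Tgtp1. In the annotation used for counting, the Irgm2 and Tgtp1 stretches lay in introns of longer transcripts, the Irgm1 stretch lay in an exon, and those of Igtp and Tgtp2 lay upstream of the gene. A match describes the letters only, since binding was not measured.

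Total counts ranged from 10773151 in Control mouse 159 to 24763375 read pairs per mouse. Control mouse 159 stood apart from the other mice for most members, and the main fold changes are therefore given with and without it. Among the genes kept, 585 (4.37%) were at least 2-fold higher in mouse 159 than the median of the other 3 Control mice, and the median ratio over all genes kept was 1.01. For these values and for the places of members among all genes kept, 0.1 CPM was added to both sides of the ratio. Ratios printed for single genes have nothing added. Mc1r was at 0 counts in every mouse, so the deletion could not be checked from these counts. No batch or run date was given in the sources used here.

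The regulatory members showed the same mouse on top in each case. Irgm1, which controls the membrane loading of the effectors, was at 49.6, 118, 53.4 and 54.1 CPM in Control mice 154, 159, 181 and 193, and at 41.6, 45.7, 54.6 and 58.8 CPM in Mc1r LKO mice 141, 156, 157 and 182. Control mouse 159 had 2.20 times the median of the other Control mice, and the other 7 mice of both genotypes overlapped. Irgm2 was at 28.5, 121, 25.7 and 38.4 CPM in the Control mice and at 26.2, 22.5, 37.1 and 26.5 CPM in the Mc1r LKO mice, in the same order of mice. The Irgm2 level in mouse 159 was 4.26 times the median of the other Control mice and 3.16 times the highest of the other 7 mice. Igtp stood further apart, with 19.7, 155, 17.6 and 29.1 CPM in the Control mice and 16.4, 21.7, 25.9 and 21.2 CPM in the Mc1r LKO mice. Its ratio in mouse 159 was 7.88, which 12 genes (0.0896% of those kept, Igtp included) reached or passed.

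Among the effectors, Iigp1 had the most counts and the highest median level per length. Iigp1 was at 174, 540, 212 and 233 CPM in Control mice 154, 159, 181 and 193, and at 135, 128, 217 and 323 CPM in Mc1r LKO mice 141, 156, 157 and 182. Mouse 159 was again highest, at 2.54 times the median of the other Control mice, while Mc1r LKO mouse 182 lay above the other 3 Control mice. Tgtp1 was at 0.744, 11.6, 0.365 and 1.83 CPM in the Control mice and at 0.207, 0.780, 1.62 and 0.562 CPM in the Mc1r LKO mice. Tgtp1 rested on few reads, between 3 and 45 counts in the mice other than 159 and 125 counts in mouse 159, where its ratio of 15.6 to the median of the other Control mice was second among all genes kept. Tgtp2 was at 0.851, 4.00, 1.15 and 2.0 CPM in the Control mice and at 1.18, 0.650, 0.848 and 0.358 CPM in the Mc1r LKO mice, from 7 to 49 counts per mouse. Of the members, Tgtp2 had the lowest ratio of the Mc1r LKO mean to the mean of the other 3 Control mice, 0.569, and 3 of 4 Mc1r LKO mice lay below all Control mice. The highest of these 3, mouse 157 at 0.848 CPM, was level with Control mouse 154 at 0.851 CPM. Of the 100-base stretches of the annotated Tgtp1 transcripts, 70.3% also occurred in Tgtp2, and 76.8% of those of Tgtp2 occurred in Tgtp1. Reads that map to several places were not counted, so the split between Tgtp1 and Tgtp2 is uncertain. This share was 5.16% for Igtp and 3.01% for Irgm2, each with the other, and at most 0.125% for the remaining members.

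The other members on chromosome 18 differed among themselves. BC023105 was at 3.35, 113, 3.54 and 7.01 CPM in Control mice 154, 159, 181 and 193, and at 1.94, 2.08, 4.16 and 3.73 CPM in Mc1r LKO mice 141, 156, 157 and 182. It had 1218 counts in mouse 159 and between 28 and 172 in the other mice, and its ratio of 32.0 to the median of the other Control mice was the highest of the 13400 genes kept. F830016B08Rik was at 9.78, 29.2, 19.3 and 14.4 CPM in the Control mice and at 15.6, 12.5, 9.01 and 19.7 CPM in the Mc1r LKO mice. Its ratio in mouse 159 was 2.03, and the Mc1r LKO mice and the other 3 Control mice covered nearly the same range. Gm4951 was the exception, at 62.4, 90.6, 92.6 and 92.5 CPM in the Control mice and at 59.6, 55.9, 71.1 and 97.1 CPM in the Mc1r LKO mice. For this gene mouse 159 lay among the Control mice, at 0.979 times the median of the other 3, and the highest mouse was Mc1r LKO mouse 182.

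**Figure D2:**
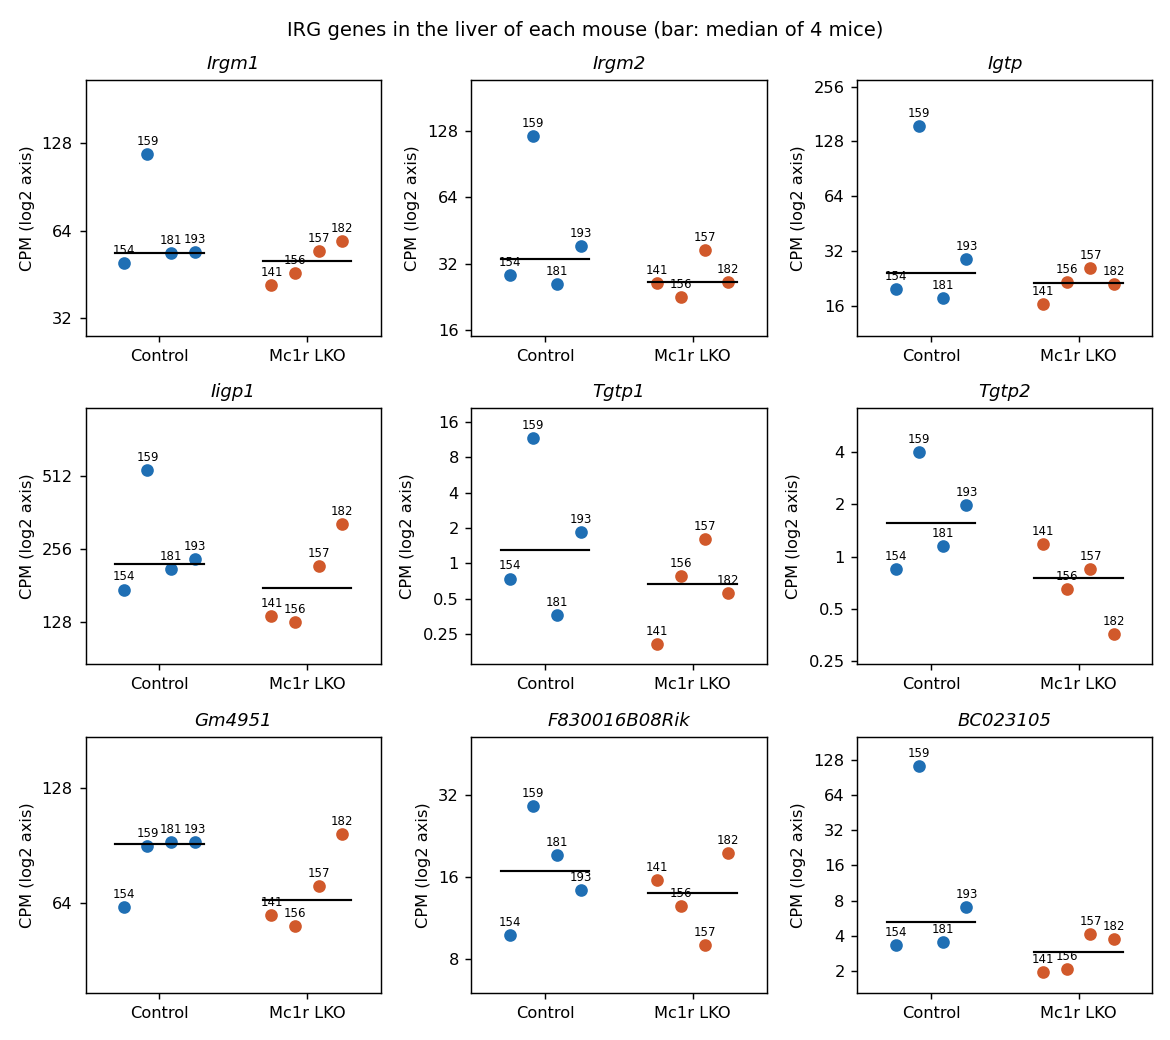
CPM (log2 axis) of the 9 members in the liver of each mouse, labelled by mouse number, with a bar at the median of the 4 mice of a genotype. Control mouse 159 is the highest of the 8 mice for 8 members, and Gm4951 is highest in Mc1r LKO mouse 182.

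Mouse 159 was the highest of the 8 mice for 8 of 9 members. Among the other Control mice, mouse 193 was the next highest for 7 members. Within the Mc1r LKO mice, mice 157 and 182 were each highest for 4 members, and mice 141 and 156 were lowest for 4 and 3 members.

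Between the genotypes, all 9 members had a negative log2 fold change (Mc1r LKO minus Control), with a median of -0.91 beside -0.01 for all genes kept. Individual values were -3.34 (SE 1.13) for BC023105, -2.06 (SE 0.991) for Tgtp1, -1.36 (SE 0.534) for Tgtp2, -1.35 (SE 0.634) for Igtp, -0.91 (SE 0.450) for Irgm2, -0.53 (SE 0.388) for Iigp1, -0.45 (SE 0.263) for Irgm1, -0.34 (SE 0.324) for F830016B08Rik and -0.25 (SE 0.187) for Gm4951. Without mouse 159 the median became -0.13, beside -0.0032 for all genes. BC023105 then had -0.62 (SE 0.368), Tgtp2 -0.83 (SE 0.468), Tgtp1 -0.28 (SE 0.685) and Gm4951 -0.21 (SE 0.212), and the other 5 members lay between -0.13 and -0.03. The value was still negative for all 9, and it had shrunk by more than 1.5 times for 8 of them. Without this mouse the value changed least for Gm4951, the member in which mouse 159 did not stand apart.

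The fit across all genes used the edgeR quasi-likelihood test with Benjamini-Hochberg adjustment. It called 0 of 13400 genes (0%) at an adjusted p under 0.05, with 901 genes (6.72%) at an unadjusted p under 0.05. DESeq2 called 17 genes and limma-voom 0 at an adjusted p under 0.05. A looser rule asked for an unadjusted p under 0.05 and a log2 fold change of 0.25 or more in either direction, and called 711 genes (5.31%), 357 (2.66%) lower and 354 (2.64%) higher in Mc1r LKO mice. This put 49.8% of the called genes on the higher side, against 25.3% with scaling by library size alone. Under this rule 2 members, BC023105 and Tgtp2, were called lower, and without mouse 159 neither was, when 774 of 13695 genes (5.65%) were called and 252 (1.84%) were lower. The genotypes overlapped for all 9 members, whereas 558 genes (4.16%) did not overlap, 206 (1.54%) of them lower and 352 (2.63%) higher in Mc1r LKO mice. Nothing is read from these member counts, because the members were chosen on this contrast.

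**Figure D3:**
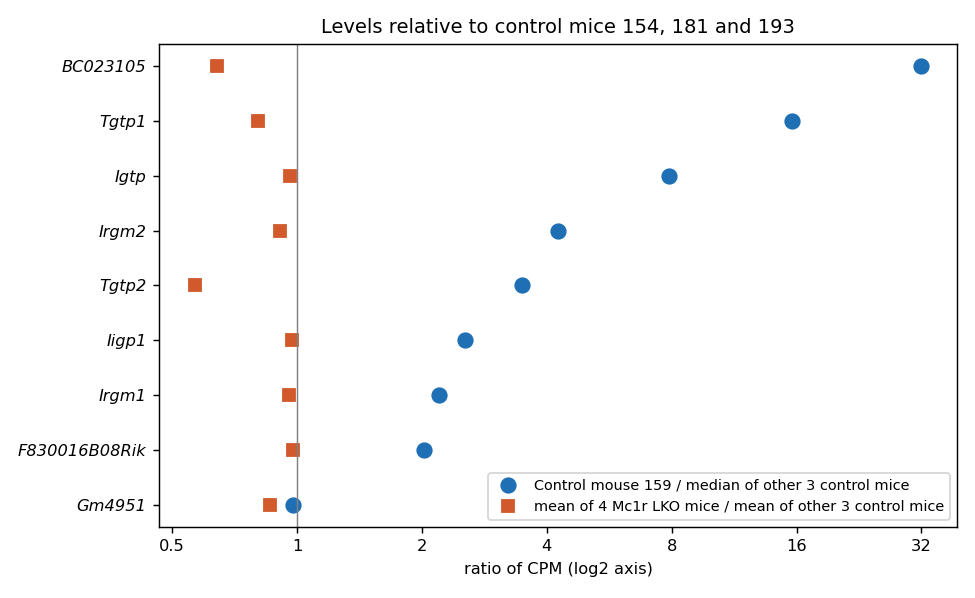
Ratios of CPM (log2 axis) to the other 3 Control mice for each member, as circles for Control mouse 159 against their median and squares for the mean of 4 Mc1r LKO mice against their mean. Circles range from 0.979 for Gm4951 to 32.0 for BC023105, and squares from 0.569 for Tgtp2 to 0.979 for F830016B08Rik.

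Levels of different genes were compared per length, as TPM, the count per exonic base scaled to the same total in every mouse. Iigp1 had the highest mean log2(TPM + 0.1), followed by Gm4951, Igtp, Irgm1, Irgm2, F830016B08Rik, BC023105, Tgtp2 and Tgtp1. Median levels over the 8 mice were 87.3 TPM for Iigp1, 71.1 for Gm4951, 25.2 for Igtp, 21.9 for Irgm1, 18.4 for Irgm2, 11.3 for F830016B08Rik, 7.02 for BC023105, 0.838 for Tgtp2 and 0.587 for Tgtp1. Each neighbouring pair in this order was compared within the 8 mice by an exact two-sided sign-flip permutation test, with Benjamini-Hochberg adjustment over 8 pairs. The order and the tests came from the same mice, and the smallest p this design allows is 0.00781.

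Of the neighbours, 4 pairs passed an adjusted p of 0.05. Iigp1 lay above Gm4951 by 0.40 on the log2 scale (SD 0.466, higher in 8 of 8 mice, exact permutation test, adjusted p = 0.0208). Irgm2 lay above F830016B08Rik by 1.02 (SD 0.667, 8 of 8 mice), and BC023105 above Tgtp2 by 3.39 (SD 1.26, 8 of 8 mice), with the same adjusted p from the exact permutation test. TPM used full exonic lengths, although reads that map to both Tgtp1 and Tgtp2 were not counted. The levels of these 2 genes, and so their low places in the order, may be understated, and the gap to BC023105 overstated. Igtp lay above Irgm1 by 0.47 (SD 0.629, 7 of 8 mice, exact permutation test, adjusted p = 0.0469). This gap was widest in mouse 159, at 177 TPM for Igtp and 46.8 TPM for Irgm1. The next widest was in Control mouse 193, at 37.4 and 24.2 TPM, and in Control mouse 181 Igtp was lower, at 20.9 and 22.0 TPM. For Gm4951 above Igtp the difference was 1.09 (SD 0.975, 7 of 8 mice), with an adjusted p of 0.05 from the exact permutation test, which was not under the threshold. Irgm1 and Irgm2 differed by 0.06 (SD 0.388), F830016B08Rik and BC023105 by 0.08 (SD 1.57) and Tgtp2 and Tgtp1 by 0.18 (SD 1.13), none of them beyond the spread between mice. Without Mc1r LKO mouse 141 or without mouse 156, 0 pairs passed. The order was remade for each set of 7 mice, and the smallest p the test allows is larger with 7 mice. In these 2 sets BC023105 lay above F830016B08Rik, so Irgm2 and F830016B08Rik were not compared. The same held without Control mouse 181 or without Mc1r LKO mouse 182, where 3 pairs passed in each set.

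Summed over the 9 members, the family reached 220, 842, 253 and 313 TPM in Control mice 154, 159, 181 and 193, and 180, 176, 242 and 279 TPM in Mc1r LKO mice 141, 156, 157 and 182. Its makeup in mouse 159 was unlike that in the other mice. BC023105 gave 25.6% of the family TPM in mouse 159 and between 2.13% and 4.79% in the other mice. Igtp gave 21.1% in mouse 159 and between 8.10% and 14.5% elsewhere. Gm4951 gave 9.41% in mouse 159 and between 26.0% and 33.1% elsewhere. Iigp1, the largest part of the family in the other 7 mice with 29.9% to 42.9%, gave 25.5% in mouse 159.

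Pairs of members were compared across mice by Pearson's r of log2 CPM, as a description over points that share libraries and normalization. Over 8 mice, the 36 pairs had a median r of 0.76, from 0.27 for Tgtp2 and Gm4951 to 0.98. Without mouse 159 the median r over 7 mice was 0.41, from -0.56 for Tgtp1 and F830016B08Rik to 0.97 for Igtp and Tgtp1. The 10 pairs within chromosome 11 went from a median of 0.91 to 0.50, and the 20 pairs across chromosomes from 0.64 to 0.33. The 6 pairs within chromosome 18 had medians of 0.67 and 0.66, but single pairs moved both ways. Their range went from 0.51 to 0.87 over 8 mice to -0.03 to 0.90 without mouse 159. BC023105 and F830016B08Rik fell from 0.65 to -0.03, and BC023105 and Gm4951 rose from 0.51 to 0.73. Without mouse 159, Irgm1 had an r of 0.94 with Iigp1 (0.93 over 8 mice) and 0.83 with Gm4951 (0.57 over 8 mice), and Iigp1 and Gm4951 had an r of 0.90. Igtp, Irgm2 and Tgtp1 had r values of 0.75 to 0.97 with each other in these 7 mice, but lower ones, 0.39, 0.43 and 0.31, with Iigp1.

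**Figure D4:**
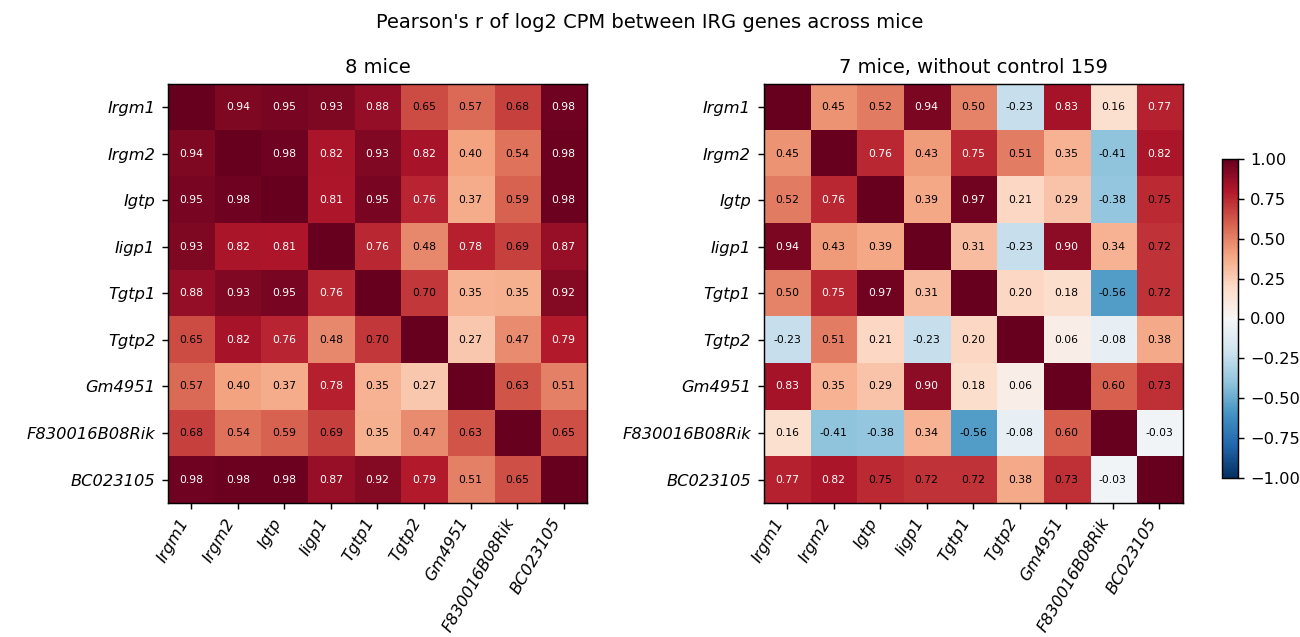
Pearson's r of log2 CPM between members across mice, with all 8 mice on the left and without Control mouse 159 on the right, and r written in each cell. The median of the 36 pairs is 0.76 on the left and 0.41 on the right, where F830016B08Rik has negative values with 5 members.

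The other genes most like the family were ranked by Pearson's r with the mean standardized log2 CPM of the 9 members. Over 8 mice the first 10 were Mpeg1 (r = 0.98), which codes for a pore-forming protein of macrophages, Fam3c, the protease gene Ctsc, AW112010, Nlrc5, Lipo3, Gbp7, Ly6e, Ifi47 and the immunoproteasome subunit gene Psmb8 (r = 0.96). Ifi47 codes for another IRG protein (Irgd) and lies near Tgtp2 at chr11:49076587-49096974. Ifi47 was at 11.4, 41.4, 9.80 and 16.7 CPM in Control mice 154, 159, 181 and 193, and at 10.1, 8.71, 13.8 and 12.3 CPM in Mc1r LKO mice 141, 156, 157 and 182. It followed the members, with mouse 159 at 3.62 times the median of the other Control mice and a log2 fold change of -0.79 (edgeR, adjusted p = 0.772) that was -0.16 without mouse 159. Without mouse 159 the first 10 were Lipo3 (r = 0.97), Il1b, Gfra2, Ssbp2, Gbp10, Pla2g4a, Arl14ep, Gbp7, Dtx3l and Irf9 (r = 0.93). Lipo3 and Gbp7 were the 2 genes in both rankings.

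Of the 9 other IRG genes on the list that were found in the tables, 4 passed the filter, and 1 of these 4 was called lower and 0 higher at the unadjusted rule. Gm12250 (Irgb10), an effector listed as a processed pseudogene and lying before Igtp, was at 0.479, 6.32, 1.35 and 1.92 CPM in the Control mice and at 1.24, 0.520, 1.41 and 0.511 CPM in the Mc1r LKO mice, with a log2 fold change of -1.37 (SE 0.698, edgeR, adjusted p = 0.772) that was -0.43 without mouse 159. Gm5431, a gene of the first chromosome 11 group, had -1.09 (SE 0.464, edgeR, unadjusted p = 0.0406, adjusted p = 0.734), with mouse 159 level with Control mouse 193 at 1.49 and 1.51 CPM. Without mouse 159 Gm5431 had -0.98 and was not called (edgeR, unadjusted p = 0.0856, adjusted p = 0.798). 9930111J21Rik2 had -0.52 (SE 0.379, edgeR, adjusted p = 0.858), and -0.37 without mouse 159. Irgq, a relative on chromosome 7 that lacks a working GTPase site, was lowest in mouse 159, at 19.6 CPM where the other Control mice had 24.1 to 34.5 CPM, with a log2 fold change of -0.17 (SE 0.177, edgeR, adjusted p = 0.907) that was -0.29 without it. The genes 9930111J21Rik1, Gm12185 and Gm4841 did not pass the filter and had their highest level in mouse 159, at 0.930, 1.12 and 2.7 CPM, from 10, 12 and 29 counts. Gm18853 had at most 4 counts and Irgc1 at most 1 count in a mouse.

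The upstream genes of the pathway differed in whether mouse 159 stood out. Ifng, the ligand, had 2 counts in Control mouse 181, 1 in Mc1r LKO mouse 157 and 0 in the other 6 mice, and the 0 in mouse 159 allows up to 0.278 CPM (3 counts). It was therefore not measurable at this depth. The receptor chains and kinases, Ifngr1, Ifngr2, Jak1 and Jak2, had log2 fold changes between -0.15 and 0.08, with 0 of 4 called, and mouse 159 lay between 0.912 and 1.32 times the median of the other Control mice. Irf1, which binds ISRE motifs, was at 24.5, 59.1, 27.7 and 37.9 CPM in the Control mice and between 26.1 and 26.7 CPM in the Mc1r LKO mice. Its highest level was in mouse 159, at 2.13 times the median of the other Control mice, and it was not called, with a log2 fold change of -0.48 (SE 0.234, edgeR, adjusted p = 0.760) that was -0.17 without mouse 159. Irf8, a transcription factor of myeloid cells, had -0.44 (SE 0.317, edgeR, adjusted p = 0.856), and -0.21 without mouse 159.

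Of the 4 tested transcription factors and coactivators, 1 was called lower and 0 higher, with a median log2 fold change of -0.55 that was -0.21 without mouse 159, and all 4 were highest in mouse 159. The called gene was Ciita, the activator of MHC class II genes, at -1.44 (SE 0.586, edgeR, unadjusted p = 0.0332, adjusted p = 0.734). Without mouse 159 it was not called, at -0.67 (edgeR, unadjusted p = 0.166, adjusted p = 0.870). Of 8 tested inhibitors of cytokine signalling 0 were called, with a median of -0.13 (-0.03 without mouse 159, over 9 tested genes). Socs3, which blocks JAK kinases, was at 24.5 CPM in Control mouse 159 and 14.8 CPM in Mc1r LKO mouse 182, while the other 6 mice lay from 3.86 to 5.85 CPM. Socs1, another inhibitor of these kinases, did not pass the filter and had 24 counts in mouse 159 and between 0 and 13 in the others. The 6 genes of the type I interferon receptor and its ISGF3 complex had a median of -0.15 (-0.05 without mouse 159) with 0 called. Of the cytokines 2 of 6 were tested, Il15 and Il18, at -0.003 and -0.01, and 0 were called.

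The GBP genes, whose products act beside IRG proteins, also had mouse 159 on top. All 11 passed the filter, all were highest in mouse 159, at 1.82 to 13.2 times the median of the other Control mice, and 7 were called lower in Mc1r LKO mice at the unadjusted rule and 0 at an adjusted p under 0.05 (edgeR). Their median log2 fold change was -1.16, beside -0.01 for all genes. The 7 were Gbp11 at -2.55, Gbp2b at -1.98, Gbp5 at -1.95, Gbp10 at -1.80, Gbp4 at -1.74, Gbp6 at -1.13 and Gbp9 at -0.80, each with an adjusted p of 0.734 (edgeR). Without mouse 159 the median was -0.46 and 2 were called lower, Gbp4 at -0.78 and Gbp5 at -1.09 (edgeR, adjusted p = 0.526 and 0.673). Gbp4 was at 5.05, 26.2, 4.59 and 6.24 CPM in the Control mice and at 2.83, 3.31, 3.88 and 2.25 CPM in the Mc1r LKO mice, so that its genotypes did not overlap. Over all pathway lists other than the members, 9 genes were called lower with 8 mice, 2 without mouse 159, and 17 and 15 without Control mice 154 and 181, respectively. Of all genes tested, 2.66% were called lower with 8 mice and 1.84% without mouse 159. Nothing is read from the list counts, because the lists were chosen with earlier results of these data known.

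The autophagy conjugation genes and adaptors, through which IRG proteins are loaded, showed no called gene among 19 tested. Their log2 fold changes lay between -0.20 and 0.19, with a median of 0.06, and 2 of 19 were highest in mouse 159. The median ratio of mouse 159 to the other Control mice was 1.00 for this list, against 3.49 for the members. Gabarap did not overlap between the genotypes, at 214 to 226 CPM in Control and 238 to 245 CPM in Mc1r LKO mice. Of all genes kept, 2.63% did not overlap and were higher in Mc1r LKO mice. Map1lc3b had an unadjusted p of 0.0423 (edgeR, adjusted p = 0.735) and missed the unadjusted rule by its log2 fold change of 0.19.

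**Figure D5:**
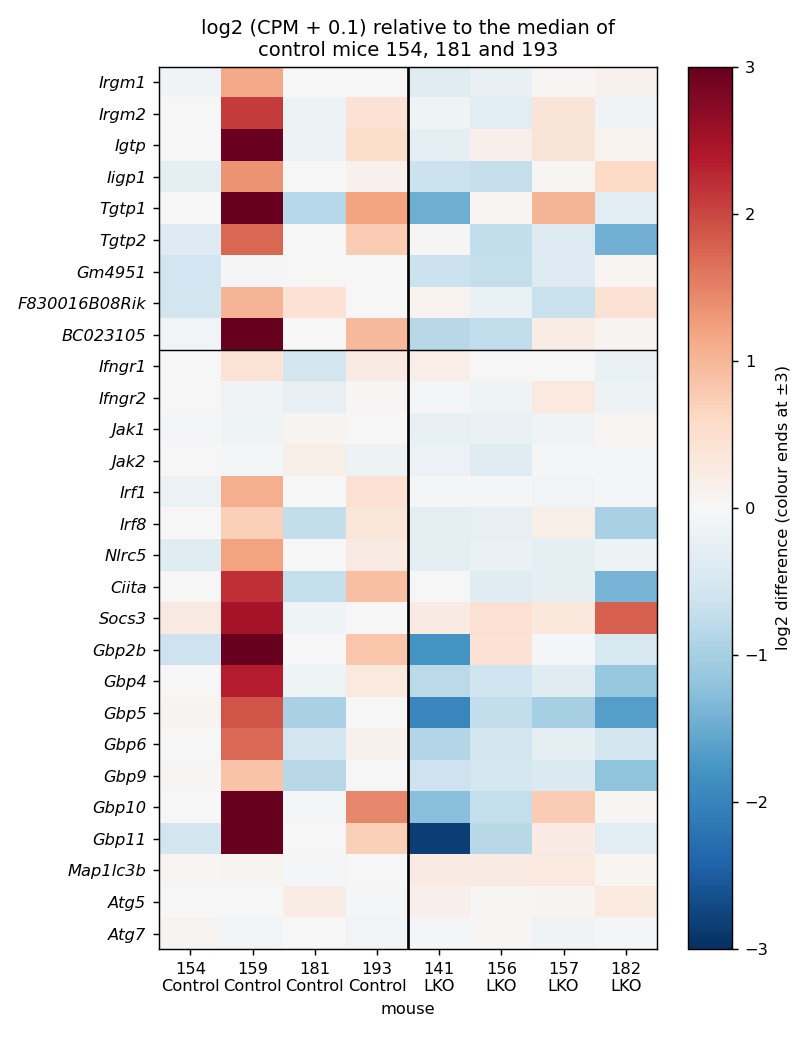
Log2(CPM + 0.1) of the 9 members and of genes of the interferon gamma pathway in each mouse (columns), relative to the median of Control mice 154, 181 and 193, with red above and blue below and the colour ending at ±3. The column of mouse 159 is red for 8 members, Irf1, Ciita and the GBP genes and near white for Gm4951, Jak1, Jak2 and the autophagy genes Atg5 and Atg7.

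The marker sums of the immune cell types were highest in mouse 159, and those of the other liver cell types were not. The 8 Kupffer cell and macrophage markers summed to 657 CPM in mouse 159, where the remaining Control mice had 275 to 435 and the Mc1r LKO mice 190 to 403 CPM, and all 8 were highest in mouse 159. The 13 T and NK cell markers summed to 16.1 CPM in mouse 159, where the remaining Control mice had 4.68 to 8.68 and the Mc1r LKO mice 4.97 to 6.01 CPM, with 8 of 13 highest in mouse 159, but only 3 of the 13 passed the filter on low counts. Dendritic cell markers summed to 13.4 CPM in mouse 159, beside 3.18 to 12.5 and 3.01 to 8.50 CPM, with 2 of 5 highest in mouse 159 and Siglech at 0 there. Neutrophil markers summed to 12.0 CPM, beside 5.73 to 6.86 and 4.63 to 9.94 CPM, with 2 of 5 highest in mouse 159 and Ly6g at 0 there. B cell markers, 1 of 4 highest in mouse 159, summed to 4.83 CPM, beside 1.15 to 3.72 and 0.869 to 2.08 CPM. The endothelial and stellate cell sums in mouse 159 were 1.03 and 0.979 times the median of the other Control mice, that of cholangiocytes was 1.10, and that of hepatocytes was 1.24. The 8 hepatocyte markers were abundant in every mouse, with a sum of 74335 to 110022 CPM. Between the genotypes, all 8 Kupffer cell and macrophage markers had a lower value in Mc1r LKO mice, with 1 called lower at the unadjusted rule and a median log2 fold change of -0.44 that was -0.18 without mouse 159, when 0 were called. All 8 hepatocyte markers had a higher value, with 1 called higher and a median of 0.15 that was 0.27 without mouse 159. Of the 3 neutrophil markers tested, only 1 had a lower value in Mc1r LKO mice, and it was called lower at the unadjusted rule. The median log2 fold change of the 3 was 0.39. Without mouse 159 this median was 0.27 and 0 were called. The part of these cells in the level of the IRG genes was not tested.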

How the data were processed

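Per the labels and the paper's methods, liver RNA of 4 Control and 4 Mc1r LKO mice was sequenced, and the authors trimmed reads with Trim Galore 0.6.6, aligned them with STAR 2.7.6a and counted them with featureCounts (Subread 2.0.1). The deposited tables hold counts of read pairs for each gene as whole numbers, 1 table per mouse, counted by strand on Ensembl release 102 (GRCm38), with no normalization. The options in the file headers leave out reads that map to several places or overlap several genes. Symbols were given to 55141 of 55487 genes.

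Genes were filtered with filterByExpr (minimum count 10, minimum total count 15), scaled by TMM and fitted with genotype alone in edgeR 4.0.16 under R 4.3.3 (quasi-likelihood, glmQLFTest). P-values of the 13400 genes kept were adjusted by Benjamini-Hochberg. On counts simulated for 4 Mc1r LKO against 4 Control mice (13224 genes), an adjusted p under 0.05 called 96 of 100 genes changed by 2 on the log2 scale, 67 of 98 changed by 1 and 6 of 13026 unchanged genes. CPM values are TMM-scaled. TPM is the count per exonic base, scaled to the same total in every mouse. Log2 CPM in correlations has a prior count of 2. Total counts of 10773151 to 24763375 set the counting precision, and 3 counts, the limit that a 0 allows, correspond to 0.121 to 0.278 CPM. This limit covers counting error only.

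Members and gene lists were chosen with earlier results of these data known. Named genes were the 9 members, the other IRG genes with a count, Ifng, Ifngr1, Ifngr2, Jak1, Jak2, Irf1, Irf8, Socs1, Socs3, any pathway list gene called at the unadjusted rule (marker genes are given by list only), and the 10 genes most like the members with and without mouse 159. Ifi47 was described further, and Il15, Il18, Cish, Gbp3, Ptpn2, Atg5, Atg7, Atg16l1, Nbr1, Gabarap, Map1lc3b, Ly6g and Siglech named, after their values were seen. Alternatives were DESeq2 1.42.0, limma-voom (limma 3.58.1), RLE scaling, library size alone, 2 other filters, leaving out each mouse, and Tgtp1 and Tgtp2 summed. Figures were drawn with matplotlib. Promoter windows of the 4 members on chromosome 18 and protein sequences were not used here, and some results are not reported here.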

Additional observations from a re-analysis of the deposited data

Results flagged for a closer look

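Within each genotype, the 4 mice were checked for 1 mouse far from the others (Dixon's test at the 95% level) for 79 genes, which were the members, the pathway list genes and Ifi47, and for 9 marker sums. Of the 173 groups whose mice differed, 23 had such a mouse, and 14 of the 23 were Control mouse 159. Chance gives about 8.65, but the genes were chosen with results of these mice known and share libraries, so the tally describes these genes and is not evidence about mouse 159. Of the members, 6 were set apart in mouse 159, BC023105 at 113 CPM, Irgm1 at 118, Irgm2 at 121, Igtp at 155, Iigp1 at 540 and Tgtp1 at 11.6 CPM. Gm4951 was instead set apart in Control mouse 154, at 62.4 CPM beside 90.6 to 92.6 CPM in the other 3 Control mice. In mouse 159, Socs1 was at 2.23 CPM, Socs3 at 24.5, Cish at 53.2, Il18 at 14.3, Gbp2b at 33.8, Gbp4 at 26.2, Gbp6 at 16.7 and Gbp11 at 40.6 CPM. Among the Mc1r LKO mice, Socs3 was at 14.8 CPM in mouse 182 beside 5.05 to 5.85 CPM. In that mouse Iigp1 was the highest and Tgtp2 the lowest of its genotype. Gm18853 was at 0.162 CPM in Mc1r LKO mouse 157, from 4 counts, and at 0 in the other 3. Il18 was at 12.6 CPM in Mc1r LKO mouse 141, Gbp3 at 9.78 CPM in mouse 157 and Nbr1 at 248 CPM in mouse 182. Atg16l1 was at 30.7 CPM in Control mouse 181. Ifng was at 0.104 CPM in Control mouse 181 and 0.0404 CPM in Mc1r LKO mouse 157, from 2 counts and 1 count.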

How the results depend on the processing

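The median log2 fold change of the members ranged from -1.14 to -0.13 when each mouse was left out, and the value nearest 0 was that without Control mouse 159. It lay between -0.95 and -0.53 under the other alternatives, of which at least 10 counts in every mouse left 7 members. Every member kept a negative sign under every alternative run. Without mouse 159 the values of 8 of 9 members shrank by more than 1.5 times, among them BC023105 to -0.62, Tgtp1 to -0.28 and Igtp to -0.05. Genes at an adjusted p under 0.05 numbered 17 with DESeq2 and 1 with at least 1 count in any mouse, and 0 in the other alternatives. The unadjusted rule called 1140 genes with at least 1 count in any mouse, where more genes were tested, and between 606 and 931 otherwise. Pathway genes called lower numbered 18 with at least 1 count in any mouse and 2 with limma-voom, and from 2 (without Control mouse 159) to 17 (without Control mouse 154) when a mouse was left out. They numbered 15 after leaving out Control mouse 181, and 3 after leaving out Mc1r LKO mouse 141. Pathway genes called higher numbered 0 to 1 when a mouse was left out, the 1 being Ptpn2 without Control mouse 193. Neighbouring levels past the threshold numbered 0 to 4 when a mouse was left out and the order remade, with 0 without Mc1r LKO mouse 141 or 156. They numbered 4 with log2(TPM + 1) or with unshared exonic bases. Unshared bases are those that no other gene overlaps on the strand, so the like sequences of Tgtp1 and Tgtp2 were not corrected for. Of the 10 genes most like the members, 1 remained with Spearman's rho and 2 without mouse 159. The cause of these changes was not tested. No paired analysis was run, because the labels give no litter or cage for these mice.

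Tgtp1 and Tgtp2 rest on few counts in most mice, and mouse 159 had the lowest total count.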
